A study of Mus musculus with 12 samples.

Results

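Heat shock proteins and their co-chaperones were followed in the cerebellum of mice that carry an expanded polyglutamine repeat. The members were every gene in the table whose symbol starts with Hspa, Hspb, Hspd, Hspe, Hsph, Hsp90a, Dnaja, Dnajb or Dnajc, or with Cct or Bag and a digit, together with Tcp1 and Stip1 and without Hspa5. This naming rule, which uses no measured value, found 57 of the 7667 gene rows. They comprised 6 Hsp70 proteins, 3 Hsp110 proteins, 30 J-domain proteins, 5 Bag proteins, the exchange factor Hspbp1, Hsp90ab1, Stip1, 2 small heat shock proteins and all 8 subunits of the cytosolic chaperonin CCT, also called TRiC. The rule was written for cytosolic chaperones, but 11 of the members are known as proteins of the endoplasmic reticulum and 6 as proteins of the mitochondrion, so the set is described here as the chaperone genes. The inducible Hsp70 genes Hspa1a and Hspa1b, Hspb1 and Hsp90aa1 were not analysed here.

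The tested animals were fxSCA7 92Q mice, a model of spinocerebellar ataxia type 7 that carries 92 CAG repeats, at 29 and at 12 weeks of age. They were set against wild-type littermates with repeats of normal length at the same ages. Each of the 4 conditions had 3 libraries of total RNA from whole cerebellum, each library from the pooled tissue of 3 mice. The 3 libraries of a condition were combined before deposit. Each number below is therefore the authors' single score for a condition: there is no replicate check, no test was possible, and higher or lower says only how these scores compare.

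Scores are normalized whole numbers without a stated unit, and the depth behind them is unknown. Ratios are log2 ratios of score plus 1. A score of 20 carries a rounding error that moves such a ratio by up to 0.069 on the log2 scale, and a score of 50 by up to 0.028, so scores that differ by 2 or more are called different beyond rounding. Because nothing is known of a gene's length in these scores, they were compared between conditions and not between genes. The markers of the main cerebellar neurons were all in the table, with 16 of 16 Purkinje cell genes and 14 of 14 granule neuron genes. Atxn7 itself was not analysed here. The pools also differed in sex makeup, since the Y-linked gene Eif2s3y had 15 in 92Q against 6 in wild type at 29 weeks, and 12 in 92Q at 12 weeks, where it was listed at 0 in wild type. Genotype and sex makeup cannot be told apart. Nor can age and sex makeup in wild type, where Eif2s3y was at 0 at 12 weeks and at 6 at 29 weeks.

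Molecular chaperones bind unfolded or misfolded proteins and help them fold, keep them soluble or hand them on for degradation. Hsp70 proteins bind exposed hydrophobic stretches in a cycle driven by ATP, which J-domain proteins start and nucleotide exchange factors such as Hsp110 and Bag proteins end. Hsp90 takes over clients from Hsp70 through Stip1, small heat shock proteins hold misfolded proteins without ATP, and the CCT ring encloses newly made actin, tubulin and other proteins. Hsp70, J-domain proteins and CCT are known to limit the aggregation of expanded polyglutamine in model systems. Heat shock factor 1 induces many of these genes under protein stress by binding repeated GAA units in their promoters.

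The promoters of 5 chaperone genes are shown as examples of members that hold such units. They were picked for holding them. Hspa2 and Dnajb11, which also reach 1.2-fold in a comparison below, had a promoter window without a pair of units, while Hsph1 and Cct2 reached 1.2-fold in none. RefSeq promoter windows on GRCm38.p6, the assembly also named mm10, were matched by symbol for 46 of the 57 members, and run from 250 bases before a gene start to 50 bases after it. Capitals mark each pair of heat shock units, GAANNTTC or TTCNNGAA, searched on both strands with overlaps allowed. The windows are chr5:149636266-149636565 (minus strand) for Hsph1, chr5:116422815-116423114 (minus strand) for Hspb8, chr7:30553051-30553350 (plus strand) for Hspb6, chr7:128523333-128523632 (plus strand) for Bag3 and chr10:117063326-117063625 (minus strand) for Cct2, each written 5′ to 3′ along the gene's strand; RefSeq lists a second window for Hsph1 and for Hspb6.
Hsph1: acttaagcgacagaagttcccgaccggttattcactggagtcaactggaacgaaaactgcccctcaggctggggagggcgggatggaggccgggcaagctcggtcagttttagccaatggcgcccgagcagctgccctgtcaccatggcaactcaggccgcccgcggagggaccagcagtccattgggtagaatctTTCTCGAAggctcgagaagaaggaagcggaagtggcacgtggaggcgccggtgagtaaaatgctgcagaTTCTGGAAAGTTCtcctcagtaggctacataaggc
Hspb8: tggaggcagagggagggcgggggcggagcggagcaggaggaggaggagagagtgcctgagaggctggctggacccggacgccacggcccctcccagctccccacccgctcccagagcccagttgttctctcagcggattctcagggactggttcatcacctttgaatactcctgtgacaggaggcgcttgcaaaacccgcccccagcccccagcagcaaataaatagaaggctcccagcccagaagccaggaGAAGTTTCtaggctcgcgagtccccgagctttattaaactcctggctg
Hspb6: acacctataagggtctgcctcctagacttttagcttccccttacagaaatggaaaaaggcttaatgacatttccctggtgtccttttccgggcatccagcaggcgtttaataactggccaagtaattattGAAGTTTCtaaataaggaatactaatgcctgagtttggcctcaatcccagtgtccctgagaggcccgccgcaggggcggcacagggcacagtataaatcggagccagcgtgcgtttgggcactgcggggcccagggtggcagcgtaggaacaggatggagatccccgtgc
Bag3: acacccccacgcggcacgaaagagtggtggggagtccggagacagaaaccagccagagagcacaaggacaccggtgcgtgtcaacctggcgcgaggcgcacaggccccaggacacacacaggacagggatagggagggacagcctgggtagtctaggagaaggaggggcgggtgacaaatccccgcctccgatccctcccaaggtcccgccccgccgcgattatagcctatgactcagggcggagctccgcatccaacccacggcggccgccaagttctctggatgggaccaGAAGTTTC
Cct2: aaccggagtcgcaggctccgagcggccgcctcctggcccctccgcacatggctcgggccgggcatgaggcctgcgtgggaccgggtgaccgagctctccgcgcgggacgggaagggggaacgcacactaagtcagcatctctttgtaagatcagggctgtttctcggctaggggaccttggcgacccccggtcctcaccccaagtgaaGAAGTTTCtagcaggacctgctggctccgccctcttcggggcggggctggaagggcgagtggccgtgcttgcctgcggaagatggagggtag

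A pair of units was found in 11 of the 46 members with a promoter window (23.9%), against 17% of all 27025 genes with a window and 13.1% of the 5846 of them in the expression table. The longer element of 3 units, GAANNTTC continued by NNGAA or TTCNNGAA continued by NNTTC, includes 2 overlapping pairs and was found in 1 member, Hsph1, and in 0.662% of all genes. In Hsph1 it begins at base 16 from the gene start shown, and a separate pair lies 54 bases before that start. The pair in Hspb8 begins at base 3 from the gene start, that in Bag3 at base 43, that in Hspb6 lies 120 bases before the start and that in Cct2 42 bases before it. The second Hspb6 window had no pair, while that of Hsph1 also had pairs, and the window shown was chosen for the most pairs. A match is a description of the letters and does not show that a factor binds there.

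Across the chaperone genes the differences were small. At 29 weeks 4 of the 57 were at least 1.2-fold higher in 92Q, against 3.78% of all genes tested, and 1 was at least 1.2-fold lower, against 3.12%. With a pseudocount of 5 these counts were 2 and 0, and the count higher was also 2 by median-ratio scaling or with a minimum score of 20. At 12 weeks no member reached 1.2-fold in either direction, where 0.496% of all genes were that much higher and 1.54% that much lower. None was 1.5-fold apart between genotypes at either age, a size seen in 0.535% of all genes for higher and 0.73% for lower values in 92Q at 29 weeks, and in 0.0783% and 0.17% at 12 weeks. Over the 4 conditions, the scores of 31 members stayed within 3 units. The share of all genes within 3 units was not counted, so this number says nothing particular to the members. None of the members was in the authors' shorter deposited table. It holds 99 genes, beside the 7667 gene rows used here, so 0 of 57 is near the share of all genes.

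The direction of the small differences was not the same at both ages. At 29 weeks 34 members were higher in 92Q, 10 were lower and 13 were equal, with a median log2 ratio of 0.04, while 49.5% of all genes were higher and 26.1% lower with a median of 0.00. At 12 weeks 13 members were higher, 31 lower and 13 equal, with a median of -0.03, against 32.1% of all genes higher and 36.7% lower. Beyond rounding, 20 members were higher and 3 lower at 29 weeks (27.1% and 14.5% of all genes), and 1 was higher and 18 lower at 12 weeks (11.3% and 18.7%). The rounding range is narrower for high scores, and the members had a median score of 34 in 92Q and 33 in wild type at both ages, above the 22 of all genes. The split moved with scaling: at 29 weeks it was 33 higher and 24 lower by median ratios, where 47.9% and 52.1% of all genes were, and at 12 weeks upper quartile scaling gave 31 higher and 26 lower, where 67.2% and 32.5% of all genes were. Median-ratio scaling at 12 weeks gave 26 higher and 31 lower members, against 63.3% and 36.7% of all genes.

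**Figure D1:**
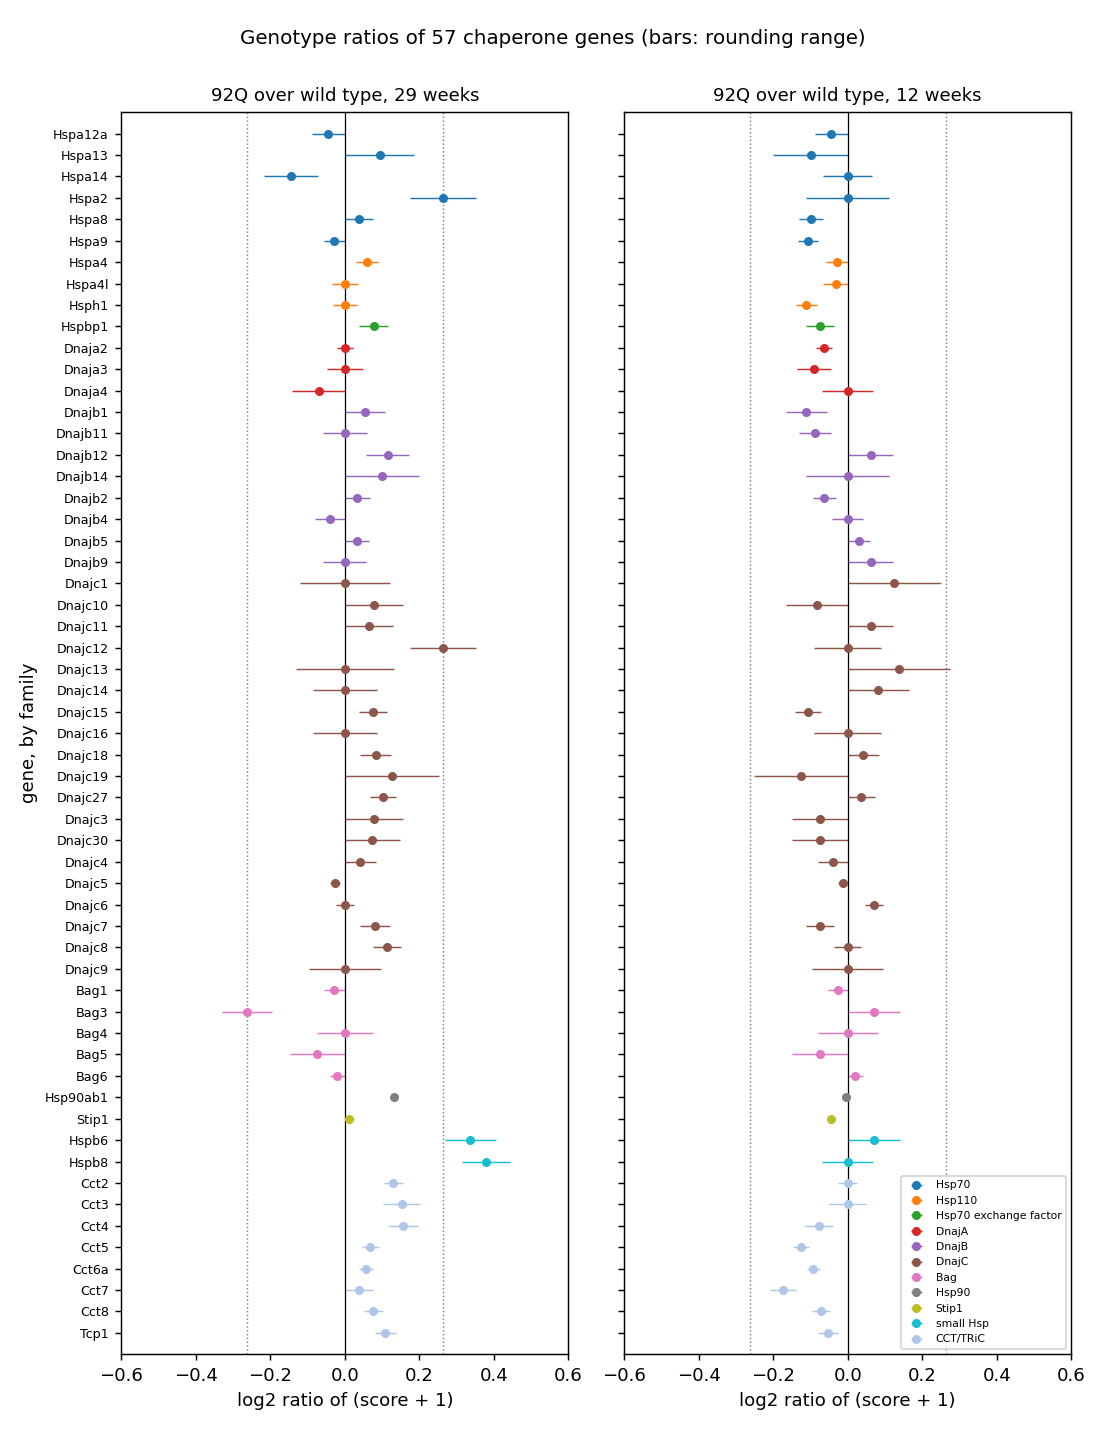
Log2 ratios of score plus 1, 92Q over wild type, for the 57 chaperone genes at 29 weeks (left) and 12 weeks (right), coloured by family, with bars for the rounding range and dotted lines at 1.2-fold. At 29 weeks Hspb8, Hspb6, Hspa2 and Dnajc12 lie at or beyond the upper line and Bag3 on the lower one, and all 8 CCT subunits lie right of 0. At 12 weeks no gene reaches a line.

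**Figure D2:**
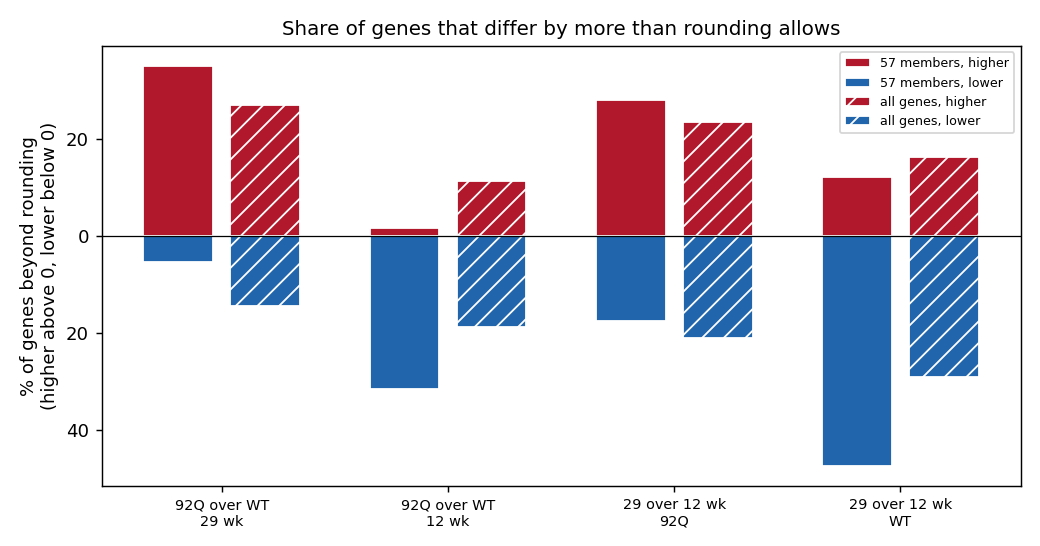
Percentage of genes that differ beyond rounding (2 or more score units), higher above 0 and lower below 0, for the 57 chaperone genes (plain) and all genes tested (hatched) in each comparison. Of the chaperone genes 35.1% were higher beyond rounding in 92Q at 29 weeks (27.1% of all genes), 31.6% were lower in 92Q at 12 weeks (18.7%) and 47.4% were lower at 29 than at 12 weeks in wild type (29%).

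The small heat shock proteins had the highest ratios of the set at 29 weeks. Hspb8, which acts with Bag3 to deliver misfolded proteins to autophagy, had 25 in 92Q against 19 in wild type at 29 weeks, and 20 in each genotype at 12 weeks. Its log2 ratio was 0.38 at 29 weeks, with a rounding range of 0.31 to 0.44, and 0.00 at 12 weeks. Hspb6, a small heat shock protein known from muscle, had 23 in 92Q against 18 in wild type at 29 weeks, and 20 against 19 at 12 weeks. For both genes the 29-week 92Q score stood above the other three, which lay within 2 units of each other. The 29-week log2 ratio of Hspb6 was 0.34. Hspb8 lies at chr5:116408491-116422864 and Hspb6 at chr7:30552178-30555443 (mm10, GENCODE M21, whole protein-coding genes). With a pseudocount of 5 they were the 2 members still 1.2-fold higher.

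Markers of other cells moved in the same 29-week comparison, in which 49.5% of all genes were higher in 92Q and 26.1% lower. All 10 measured genes of a list of 14 microglia markers were higher, with a summed score of 368 in 92Q against 165 in wild type. All 7 measured genes of a list of 10 choroid plexus markers were higher, with a sum of 1711 against 579. The 12 astrocyte markers summed to 3646 against 2978, with 9 higher and 3 lower. The difference of these sums lay mostly in Apoe (1552 against 1062) and Gfap (235 against 95). Slc1a3 (323 against 361), Gdf10 (106 against 130) and Aldh1l1 (24 against 25) were lower. The 12 oligodendrocyte markers summed to 4340 against 4067, with 9 higher and 3 lower. The 16 Purkinje cell markers were all lower, with sums of 4897 and 7441. Of the 14 granule neuron markers 10 were lower and 3 higher, with sums of 2785 and 3010. Of 5 measured endothelial and mural cell markers 2 were higher and 1 lower. The part of these cells in the small heat shock protein values was not tested, and in whole tissue a change in the number of cells of a type and a change in RNA per cell cannot be told apart. At 12 weeks the choroid plexus sum was 65 in 92Q, where Kl and Sostdc1 were listed at 0, against 456 in wild type.

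Bag proteins, which bind Hsp70 and release its nucleotide, had no member with a higher score in 92Q at 29 weeks. Of all genes 49.5% were higher and 26.1% lower in that comparison. Bag3, the stress-inducible partner of Hspb8, had 19 in 92Q against 23 in wild type at 29 weeks, and 20 against 19 at 12 weeks. Its log2 ratio at 29 weeks was -0.26, with a rounding range of -0.33 to -0.20, the lowest of the 57. The 29-week wild-type score was the one that differed, and the other three lay within 1 unit. Of the other Bag genes, Bag1, Bag5 and Bag6 were lower in 92Q at 29 weeks by 1 unit each and Bag4 was equal, so none differed beyond rounding. Bag6, which guards newly made membrane proteins in the cytosol, had 71 in 92Q against 72 in wild type at 29 weeks, and 69 against 68 at 12 weeks. Of the 12 listed immediate early genes, which follow neuronal activity and handling, 10 were in the table, and 8 were lower and 2 higher (Jun and Arc) in 92Q at 29 weeks. Their scores summed to 134 in 92Q against 206 in wild type at 29 weeks, and to 134 against 148 at 12 weeks. Their part in the Bag3 value was not tested.

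Among the Hsp70 proteins, 3 had a higher and 3 a lower score in 92Q at 29 weeks (49.5% and 26.1% of all genes). At 12 weeks none was higher and 4 were lower (32.1% and 36.7% of all genes). By upper quartile or median-ratio scaling these 12-week counts were 2 and 4. Beyond rounding 1 was higher and 1 lower at 29 weeks, and 2 were lower at 12 weeks. Hspa2, an Hsp70 best known from the testis and also present in brain, had 17 in 92Q against 14 in wild type at 29 weeks, and 12 in each genotype at 12 weeks. Its log2 ratio was 0.26 at 29 weeks and 0.00 at 12 weeks. Hspa8, the constitutive Hsc70, had 38 against 37 at 29 weeks and 42 against 45 at 12 weeks, so the genotypes differed beyond rounding at 12 weeks alone. Of all 50-base windows of Hspa8 transcripts, 39.4% also occur in transcripts of 16 other genes, so its scores are uncertain for reads of 50 bases. Hspa9, the mitochondrial Hsp70, had 49 against 50 at 29 weeks and 51 against 55 at 12 weeks. Hspa14, which works at the ribosome, had 18 against 20 at 29 weeks and 21 in each genotype at 12 weeks. Hspa12a and Hspa13 differed by 1 unit at each age.

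Hsp110 proteins and Hspbp1, the other exchange factors of Hsp70, were level or higher by 2 units in 92Q at 29 weeks. At 12 weeks all 4 were lower by 1 to 4 units, though upper quartile scaling turned 2 of the 3 Hsp110 genes higher. Of all genes 49.5% were higher at 29 weeks and 36.7% lower at 12 weeks. Hsph1, the inducible Hsp110 that also takes part in disaggregation, had 45 in each genotype at 29 weeks, and 49 in 92Q against 53 in wild type at 12 weeks. Hspa4l had 41 in each genotype at 29 weeks and 43 against 44 at 12 weeks. Hspa4 had 49 against 47 at 29 weeks and 49 against 50 at 12 weeks. Hspbp1 had 37 against 35 at 29 weeks and 37 against 39 at 12 weeks. The 92Q scores of Hspa4 and Hspbp1 were equal at both ages, and the wild-type scores differed.

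The J-domain proteins, which bring clients to Hsp70 and start its cycle, differed by small amounts between genotypes. At 29 weeks the median log2 ratio was 0.00 in DnajA, 0.03 in DnajB and 0.07 in DnajC genes. At 12 weeks it was -0.06, 0.00 and 0.00. At 29 weeks 49.5% of all genes had a higher score in 92Q and 26.1% a lower one, or 47.9% and 52.1% by median-ratio scaling. Of the 3 DnajA genes none was higher and 1 was lower (0 and 3 by that scaling), of the 8 DnajB genes 5 were higher and 1 lower (5 and 3), and of the 19 DnajC genes 12 were higher and 1 lower (12 and 7). Dnajc12, a co-chaperone of the aromatic amino acid hydroxylases, had 17 in 92Q against 14 in wild type at 29 weeks and 15 in each genotype at 12 weeks. It was the only J-domain gene at 1.2-fold between genotypes, and it and Hspa2 stood exactly at that ratio. Dnajb12, a membrane-bound J-domain protein of the endoplasmic reticulum, had 25 against 23 at 29 weeks and 23 against 22 at 12 weeks. Dnajb1, the main stress-inducible Hsp40, had 26 against 25 at 29 weeks and 24 against 26 at 12 weeks.

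Dnajc5, the cysteine string protein of synaptic vesicles, had 106 in 92Q against 108 in wild type at 29 weeks, and 105 against 106 at 12 weeks. Dnajc6, the neuronal auxilin that uncoats clathrin vesicles, had 61 in each genotype at 29 weeks and 61 against 58 at 12 weeks, which made it the single member higher in 92Q beyond rounding at that age. The vesicle proteins Dnajc5 and Dnajc6 thus differed by at most 3 units between genotypes. Dnaja2, a cytosolic partner of Hsc70, had 63 in each genotype at 29 weeks and 65 against 68 at 12 weeks. Dnaja3, its mitochondrial relative, had 29 in each genotype at 29 weeks and 30 against 32 at 12 weeks. Dnajc1 had 11 in every condition but 12-week wild type, where it had 10, and Dnajc9 had 14 in all 4 conditions.

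Hsp90ab1, the constitutive cytosolic Hsp90, had 319 in 92Q against 291 in wild type at 29 weeks, and 316 against 317 at 12 weeks. The 29-week wild-type score stood below the other three, which lay within 3 units. Its log2 ratio at 29 weeks was 0.13. Stip1, which links Hsp70 to Hsp90, had 122 against 121 at 29 weeks and 129 against 133 at 12 weeks, and both of its 29-week scores were below both 12-week scores.

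The 8 CCT subunits had the same direction at 29 weeks, and their wild-type scores differed by more units with age than their 92Q scores, except in Cct4, where both differed by 3 units. All 8 were higher in 92Q at 29 weeks, with a median log2 ratio of 0.09, and at 12 weeks 6 were lower and the other 2 equal, giving -0.08 as the median. Tcp1, the first subunit of the ring, had 54 in 92Q against 50 in wild type at 29 weeks, and 52 against 54 at 12 weeks. Cct2 had 57 against 52 at 29 weeks and 55 in each genotype at 12 weeks. Cct3 had 29 against 26 and, at 12 weeks, 28 in each genotype. In these 3 genes the 29-week wild-type score was the lowest of the 4 conditions.

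The same held for the other five. Cct4 had 38 in 92Q against 34 in wild type at 29 weeks, and 35 against 37 at 12 weeks. Cct5 had 64 against 61 at 29 weeks and 65 against 71 at 12 weeks. Cct6a had 77 against 74 at 29 weeks and 75 against 80 at 12 weeks. For Cct5 and Cct6a, as for Cct7 and Cct8, the 12-week wild-type score was the highest, with the 92Q scores of both ages between the wild-type ones. Cct7 had 38 against 37 at 29 weeks, within rounding, and 38 against 43 at 12 weeks. Cct8 had 57 against 54 at 29 weeks and 57 against 60 at 12 weeks. The 92Q scores of a subunit differed by at most 3 units between ages.

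Over all genes, 32.2% were likewise not higher in 92Q at 12 weeks and higher at 29 weeks, and 7.12% were lower at 12 weeks and higher at 29 weeks beyond rounding, the pattern of 5 of the 8 subunits. The 29-week direction of all 8 and their lower wild-type scores at 29 than at 12 weeks held under each of 3 ways of scaling, whereas at 12 weeks Cct2 and Cct3, equal as deposited, turned higher in 92Q by upper quartile and by median-ratio scaling. In Cct6a 15.4% and in Tcp1 13.9% of the 50-base windows occur in transcripts of other genes. In the other subunits the share was at most 4.28%. Exons of genes on the opposite strand overlap Cct6a (Psph), Tcp1 (Acat3 and Mrpl18), Cct7 (Pradc1) and Cct8 (Usp16).

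**Figure D3:**
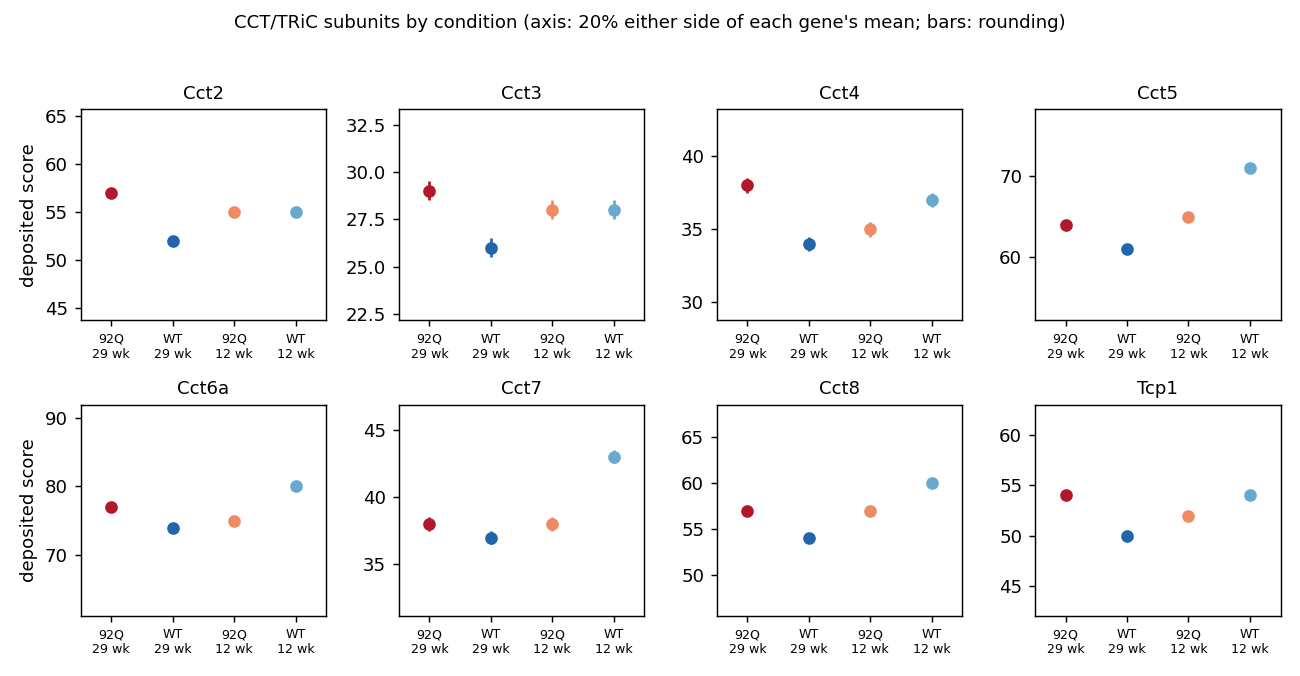
Deposited scores of the 8 CCT subunits in 92Q and wild type at 29 and 12 weeks, on axes that span 20% either side of each gene's mean, with bars for rounding. In each gene the 29-week wild-type score is the lowest, and in Cct5, Cct6a, Cct7 and Cct8 the 12-week wild-type score is the highest.

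In wild-type animals chaperone genes were mostly lower at 29 than at 12 weeks. The wild-type pools of these ages also differed in sex makeup by their Eif2s3y scores, so age and sex makeup cannot be told apart here. Of the 57, 35 were lower, 14 higher and 8 equal, with a median log2 ratio of -0.08, against 45.9% of all genes lower and 32.5% higher. Beyond rounding 27 were lower and 7 higher (29% and 16.2% of all genes). All 8 CCT subunits, all 3 Hsp110 genes, Hsp90ab1 and Stip1 were lower beyond rounding. By upper quartile or median-ratio scaling 22 members were higher and 35 lower, where 56.5% or 54.6% of all genes were higher. At 1.2-fold, Dnajb11 and Hspa8 were lower and Bag3 was higher (3.81% and 2.45% of all genes). No member reached 1.5-fold with age in wild type (0.144% of all genes lower and 0.222% higher).

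Within 92Q the directions were closer to balance. Of the 57, 25 were higher at 29 weeks, 19 lower and 13 equal, with a median of 0.00, against 42.4% of all genes higher and 35.4% lower. Median-ratio scaling gave 25 higher and 32 lower, where 42.3% and 57.7% of all genes were, and quantile normalization 29 higher and 19 lower. At 1.2-fold Hspa2 and Hspb8 were higher and Dnajb11 lower (5.53% and 4% of all genes), and none reached 1.5-fold (0.978% higher and 0.483% lower). The age log2 ratio of Hspa2 was 0.47 in 92Q and 0.21 in wild type, and that of Hspb8 was 0.31 and -0.07.

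Dnajb11, a co-chaperone of Hspa5 in the lumen of the endoplasmic reticulum, had the lowest age ratios of the 57. It had 23 in each genotype at 29 weeks, against 31 in 92Q and 33 in wild type at 12 weeks, with log2 ratios of -0.42 in 92Q and -0.50 in wild type. Hspa8 followed in wild type, with 37 at 29 weeks against 45 at 12 weeks, and had 38 against 42 in 92Q. Hspa5, which the naming rule leaves out, had 88 in 92Q and 104 in wild type at 29 weeks, against 125 in 92Q and 155 in wild type at 12 weeks. The other members of the endoplasmic reticulum had no age ratio as low, and Dnajb9 and Dnajc3 differed by at most 2 units between ages.

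**Figure D4:**
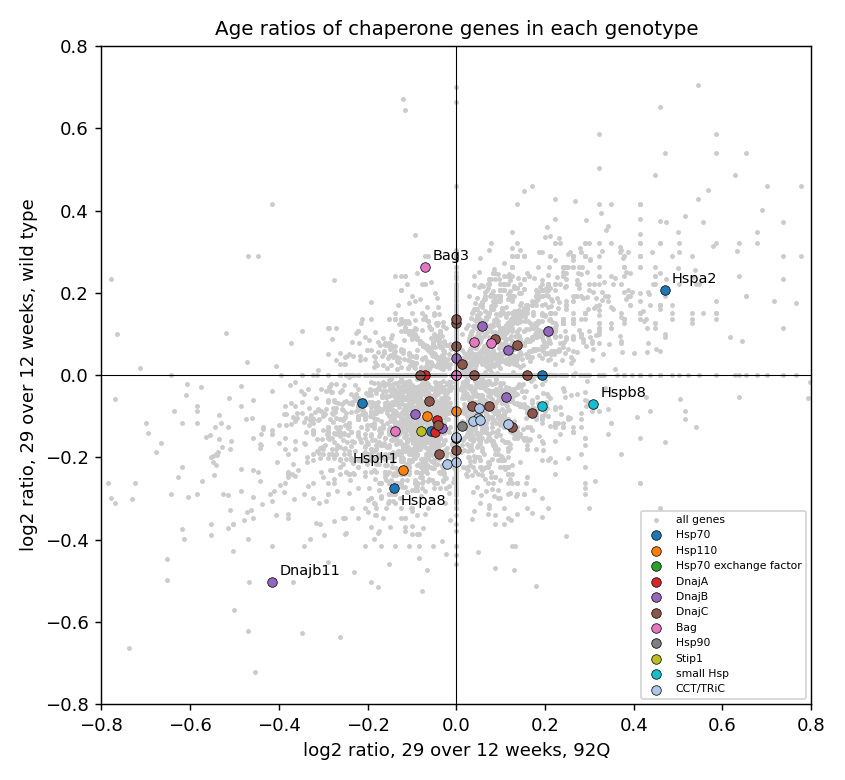
Log2 ratio of 29 over 12 weeks in 92Q (x axis) against that in wild type (y axis) for the chaperone genes, coloured by family, over all genes in grey. Of the chaperone genes Dnajb11 lies lowest on both axes, Hspa2 furthest right, and the CCT subunits lie below 0 on the wild-type axis and between -0.02 and 0.12 on the 92Q axis.

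**Figure D5:**
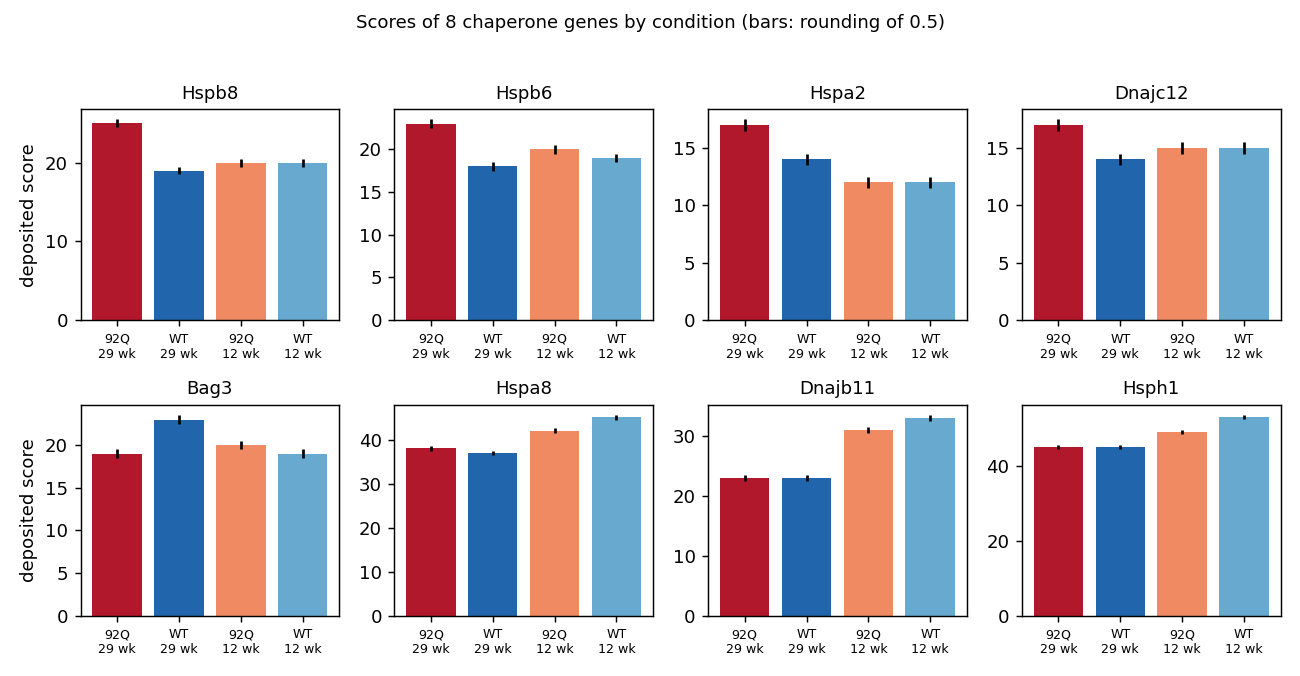
Deposited scores of 8 chaperone genes in 92Q and wild type at 29 and 12 weeks, with bars for rounding. Hspb8, Hspb6, Hspa2 and Dnajc12 are highest in 92Q at 29 weeks, Bag3 in wild type at 29 weeks, and Hspa8, Dnajb11 and Hsph1 in wild type at 12 weeks.

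The difference between the genotype ratios, 29 weeks minus 12 weeks, was above 0 for 40 members and below 0 for 12, with a median of 0.09. Over all 7659 genes tested it was above 0 for 3892 and below 0 for 2759, with a median of 0.00. The members' median was 0.0537 by upper quartile scaling and 0.0541 by quantile normalization. It was 0.16 in the median of the 8 CCT subunits, each of which was above 0. The extremes were Hspb8 at 0.38 and Bag3 at -0.33, a pair that works together in one complex. The genotype ratios of 8 members were below 0 at 12 weeks and above 0 at 29 weeks beyond rounding, and none showed the opposite (7.12% and 2.22% of all genes).

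Co-chaperones outside the naming rule were counted from lists of the same pathway, beside 49.5% of all genes higher and 26.1% lower in 92Q at 29 weeks and 32.1% higher and 36.7% lower at 12 weeks. Of 17 measured Hsp90 co-chaperones 13 were higher in 92Q at 29 weeks and 1 lower, at a median of 0.05, while at 12 weeks none was higher and 12 were lower, at a median of -0.06 (5 and 12 by upper quartile or median-ratio scaling). Ahsa1, the activator of the Hsp90 ATPase, had 61 in 92Q against 57 in wild type at 29 weeks and 68 against 71 at 12 weeks, and Fkbp4, a prolyl isomerase of steroid receptor complexes, had 108 against 104 and 117 against 123. Of 9 measured prefoldin genes and other CCT helpers 5 were higher and 3 lower at 29 weeks (55.6% and 33.3%), and none was higher and 6 lower at 12 weeks. Of 12 further Hsp70 partners 7 were higher and 3 lower at 29 weeks (58.3% and 25%, near the shares of all genes), and 2 higher and 7 lower at 12 weeks, which upper quartile scaling turned to 6 and 6. Among them the ubiquitin ligase Stub1 had 71 against 66 at 29 weeks and 73 against 76 at 12 weeks. Mitochondrial proteases, disaggregases and the chaperone Trap1 were higher in 6 of 9 and lower in 1 at 29 weeks, and lower in 8 of 9 at 12 weeks. Beyond rounding, 2 of these 9 were higher and 0 lower at 29 weeks, and 0 differed at 12 weeks. With age in wild type, 12 of the Hsp90 co-chaperones were lower and 2 higher (45.9% and 32.5% of all genes), and within 92Q 8 were lower and 8 higher.

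Of 20 listed genes that heat shock factor 1 induces, 13 were in the table, 8 of them members, and 9 had a higher score in 92Q at 29 weeks and 2 a lower one (69.2% and 15.4%, against 49.5% and 26.1% of all genes). At 12 weeks 2 were higher and 10 lower (15.4% and 76.9%, against 32.1% and 36.7% of all genes), or 5 and 8 by upper quartile scaling. Cryab, a small heat shock protein abundant in glia, had 170 in 92Q against 155 in wild type at 29 weeks and 165 against 170 at 12 weeks. Chordc1, an Hsp90 co-chaperone, had 30 against 29 and 31 against 32, and Cacybp had 17 against 18 and 18 against 17. Hsf1 itself had 26 against 29 at 29 weeks and 30 in each genotype at 12 weeks, and Hsf2 had 12 in all 4 conditions. Hsbp1, which binds heat shock factor 1, had 145 against 132 at 29 weeks and 146 against 148 at 12 weeks.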

How the data were processed

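Total RNA of mouse cerebellum was sequenced as single-end reads of 50 bases from 12 libraries in 4 conditions, per the labels' protocols. The submitters' processing notes name Bowtie 0.12.7, SAMtools 0.1.12a, Cuffdiff 1.3.0 and mm10, with no role or order. The deposited score is a whole number per gene and condition, which the authors made from 3 libraries; that it is normalized was read from the values, whose medians are equal across conditions. The unit, filters, annotation and use of strand in counting were not stated. Every row reaches 10 in some condition, so genes below that were not analysed here. Of 7684 rows, 17 with a number as name were left out.

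Log2 ratios used a pseudocount of 1 for genes at 5 or more in 1 or both conditions, in Python 3.11.15 with pandas 2.3.3. Ratios were counted at 1.2-fold and 1.5-fold inclusive, and rounding ranges moved each score by 0.5. The ratio step was tested on simulated data. No test could be run with 1 value per condition.

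Members, lists and thresholds were chosen with earlier results of these data known. Named genes were members at 1.2-fold whose rounding range leaves out 0, the 10 with the highest means, the extremes of each family and heat shock factor 1 targets; further members were named after their values were seen. Gene positions and shared 50-base windows came from GENCODE M21: 27 of the 57 members shared no window with another gene, 23 shared up to 10% and 7 more than that (Bag4, Cct6a, Dnaja4, Dnajc14, Dnajc30, Hspa8 and Tcp1). Alternatives were pseudocounts of 0.1 and 5, minimum scores of 1 and 20, 3 ways of scaling, and leaving out members of the endoplasmic reticulum and mitochondrion.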

Additional observations from a re-analysis of the deposited data

Results flagged for a closer look

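For 8 of the 57 chaperone genes (14%) the 92Q score was below wild type at 12 weeks and above it at 29 weeks. Each of these differences was 2 or more score units. Over all 7659 genes tested the share was 7.12%, with a lower median score (22) than the members had. The change of the genotype ratio with age was not tested, since each condition has 1 value. On the log2 scale the genotype ratio at 29 weeks minus that at 12 weeks was 0.23 for Cct4, 0.19 for Cct5, 0.15 for Cct6a, 0.15 for Cct8 and 0.16 for Tcp1, all CCT subunits. It was 0.18 for Dnajc15, a mitochondrial J-domain protein, 0.15 for Dnajc7, a J-domain co-chaperone of Hsp70 and Hsp90, and 0.15 for Hspbp1. Dnajc15 had 38 in 92Q against 36 in wild type at 29 weeks, and 38 against 41 at 12 weeks. Dnajc7 had 36 against 34, and 37 against 39. Exons of Dnajc7 overlap those of Cnp on the opposite strand over 154 bases. Cnp had 205 in 92Q against 168 in wild type at 29 weeks, and 177 against 183 at 12 weeks, and without a statement on strand reads of the overlap cannot be told apart.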

How the results depend on the processing

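Of the medians, those that turned in sign or moved by over 0.02 on the log2 scale are given here, and of the counts those that moved by over 1.5 times. The 92Q age median, 0.00 as reported, was -0.0106 by median-ratio scaling and 0.0055 by quantile normalization. The median of all genes was -0.0103 and 0.00 there. At 29 weeks the count of members at least 1.2-fold higher in 92Q, 4 as reported, was 2 with a pseudocount of 5, a minimum score of 20 or median-ratio scaling, and the count lower, 1 as reported, was 0 with a pseudocount of 5. The 29-week median was 0.0147 by median-ratio scaling, where that of all genes was -0.0251. The 12-week median, -0.03 as reported, turned to 0.0081 by upper quartile scaling, where that of all genes was 0.0324. By quantile normalization it was -0.0033, where that of all genes was 0.00. The median difference between ages, 0.09 as reported, was 0.0537, 0.0604 and 0.0541 by upper quartile, median-ratio and quantile scaling. In the wild-type age comparison the median, -0.08 as reported, was -0.1031 with a minimum of 20 and -0.0421 by upper quartile scaling. The median of all genes, 0.00 as reported, was -0.0358 and 0.0319 there. The wild-type count lower was 1 in place of 2 with a pseudocount of 5, under each way of scaling, and without members of the endoplasmic reticulum and mitochondrion. The wild-type count higher was 0 with a pseudocount of 5. In the 92Q age comparison the count higher was 1 with a minimum of 20, and the count lower was 0 without those members. The cause was not tested, apart from members left out by a minimum or a compartment. Leaving out a library was not possible, since the libraries were combined before deposit. No paired analysis was possible because the table has 1 value per condition. Depth is unknown, and whole-number scores limit ratios of low genes.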
